A study of Homo sapiens with 8 samples.

Results

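The rows of chromosome 15 were followed along the chromosome in bulk RNA-seq of 8 populations of PC9, an established line of human lung adenocarcinoma cells whose growth is driven by a mutated EGFR. A row of the count table belongs to chromosome 15 when its name, with hyphens written as dots, matches exactly 1 gene symbol of the GENCODE annotation (release 44, GRCh38) and that gene lies there. This holds for 644 of the 22112 rows that match 1 gene of chromosomes 1 to 22 or X. All 8 populations carry the EGFR exon 19 deletion and a red fluorescent histone label, were untreated and are listed at passages 8 to 10. PC9-VU and PC9-MGH are versions of the line kept at different institutions. PC9-BR1 came from PC9-VU through growth in rising doses of the EGFR inhibitor afatinib and carries the second EGFR mutation T790M. The 5 other populations (DS3, DS6, DS7, DS8, DS9) are discrete sublines, each grown from 1 PC9-VU cell. Each population has 1 library, so the spread between replicates is unknown and nothing was tested for significance.

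Chromosome 15 is acrocentric. Its short arm holds arrays of ribosomal RNA genes and almost no other annotated genes, and its long arm begins with an imprinted region rich in duplicated segments, so nearly all rows lie on the long arm. In tumour cell lines, shifts in the expression of many neighbouring genes along a chromosome arm are commonly read as a sign of altered DNA dosage, which is why rows were compared here in stretches and not 1 at a time. In bulk RNA, a smaller share of cells with a given level and a lower level in every cell cannot be told apart.

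Chromosome 15 was chosen because its rows are on balance lower in DS6 and higher in DS8 than in the other libraries, so these directions are the reason for the choice and are given as a description. Whether the stretches behind the 2 directions coincided depended on the libraries each subline was set against. With each subline set against all others, 4 of 14 windows along the chromosome met the thresholds for both directions, beside 4.25% of all windows. With references that the 2 comparisons did not share the count was 9 or 1, beside 5.66% and 1.89% of all windows. The window from 77.98 to 88.3 Mb met both thresholds with all 3 references. DS6 was lowest in a distal stretch whose start was fitted to DS6. Its median there was below that of each of the other 7 libraries. DS8 had its highest median along the proximal long arm, where DS3 was close to it, and was also above most libraries in the distal stretch. Along the proximal long arm, the median difference of DS6 from each of DS7, DS9, PC9-BR1 and PC9-MGH was between -0.026 and 0.00070 on the log2 scale.

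Of the 644 rows, 218 have no count in any library, 218 have counts with a mean under 10, and 208 have a mean of at least 10 over the 8 libraries. The results below rest on these 208 rows and on 6139 rows of the other chromosomes with the same mean. The depth of a library, summed over named rows, runs from 2717355 to 3497722 counts. Levels are log2 CPM, which are counts scaled to a common library total with the TMM factors of edgeR after adding a prior count of 2. Unless another reference is named, a difference is the log2 CPM of 1 library minus the median of the other 7 libraries for the same row. Over all 6347 rows, the median difference is 0.0082 in DS6 and 0.0020 in DS8.

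Row names mark a position on the chromosome only approximately. The exons of the named genes were moved along the chromosome in steps of 500 bases, and at each move their overlap with annotated protein-coding exons was correlated, on log scales across rows, with the summed counts. The correlation was highest at a move of 292500 bases for the 89 rows between 20 and 40 Mb, 292000 bases for the 197 rows between 40 and 60 Mb, and 292500 bases for the 204 rows between 60 and 80 Mb. In these blocks it was 0.66, 0.69 and 0.70, against 0.12, 0.27 and 0.24 without a move. For the 136 rows between 80 and 100 Mb the best move was 542000 bases, with a correlation of 0.67 against 0.19. The 18 rows beyond 100 Mb gave no usable move. A coarser search in steps of 10000 bases, which asked only whether a row has any count, gave moves of 290000, 290000 and 540000 bases in the blocks from 20, 40 and 80 Mb, but was best unmoved between 60 and 80 Mb, with 74.0% of rows in accord. A row thus appears to hold the counts of sequence roughly 0.3 to 0.5 Mb beyond the gene it is named for, so no gene is interpreted from a row, and cell type markers were not checked. Positions below are those of the named genes. All 14 windows are wider than the moves, and 1 move for a whole block keeps the order of its rows.

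The rows of chromosome 15 hold 2.55% of the counts in DS3, 2.48% in DS8, 2.32% in DS7, 2.15% in PC9-VU, 2.14% in PC9-MGH, 1.83% in DS9, 1.77% in PC9-BR1 and 1.69% in DS6. The exact 95% binomial interval is 1.68% to 1.71% for DS6 and 2.46% to 2.49% for DS8, which covers counting error only. DS6 has the lowest share, and DS3 a higher one than DS8. The 10 rows with the largest counts hold between 51.4% and 59.2% of these counts. Without them the shares are 1.15% in both DS3 and DS8, 1.02% in PC9-VU, 1.01% in PC9-MGH, 0.95% in DS7, 0.87% in DS9, 0.86% in PC9-BR1 and 0.81% in DS6. DS7 thus falls below PC9-VU and PC9-MGH, while DS6 stays lowest and DS3 and DS8 highest. Because so few rows carry the sums, medians over rows are used below.

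Over the 208 rows, the median difference is -0.23 in DS6, with an interquartile range over rows from -0.48 to 0.03. In DS8 it is 0.35, with an interquartile range from 0.05 to 0.57. It is 0.31 in DS3, 0.12 in PC9-VU, -0.030 in PC9-MGH, -0.069 in DS7, -0.16 in DS9 and -0.19 in PC9-BR1. DS3 therefore lies close to DS8, while PC9-BR1 and DS9 lie close to DS6. Among 23 chromosomes, the median of chromosome 15 is the lowest in DS6, where the other 22 lie between -0.15 and 0.13. It is the second highest in DS8, where the others lie between -0.45 and 0.81, and also the second highest in DS3 and PC9-VU.

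**Figure D1:**
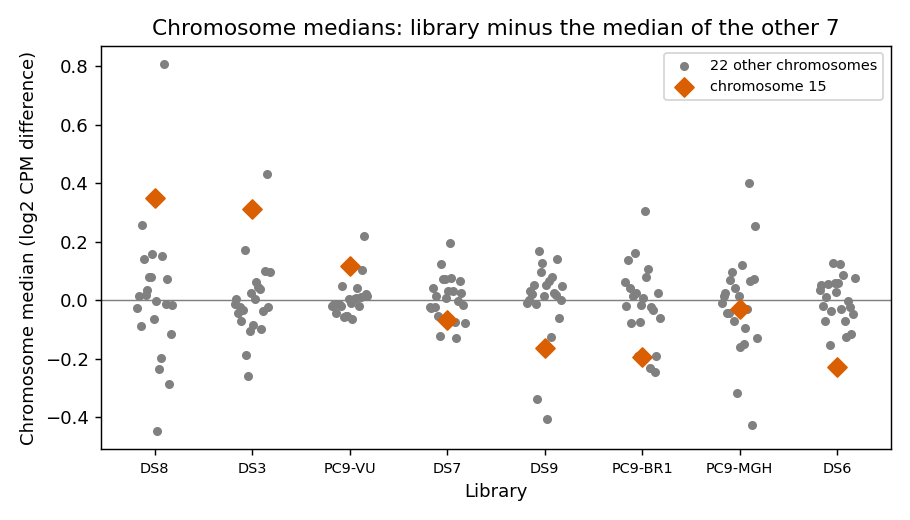
Median log2 CPM difference of each chromosome (library minus the median of the other 7, rows averaging 10 or more counts) on the vertical axis, by library. Diamonds mark chromosome 15 and grey points the other 22 chromosomes; chromosome 15 is lowest of all in DS6 at -0.23 and second highest in DS8 at 0.35 and in DS3 at 0.31.

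In DS6, 38 of the 208 rows (18.3%) are at least 1.5-fold below the median of the other 7 libraries, beside 6.89% of all rows tested, and 3 (1.44%) are at least 1.5-fold above it, beside 6.87%. In DS8, 51 rows (24.5%) are at least 1.5-fold above, beside 11.1% of all rows, and 9 (4.33%) are at least 1.5-fold below, beside 11.3%. DS6 is the lowest of the 8 libraries in 52 rows (25%), beside 9.85% of all rows, and DS8 the highest in 76 (36.5%), beside 16.2%. Only 12 rows (5.77%) are called in both directions, beside 2.06% of all rows. DS6 is lowest and DS8 highest in the same row in 22 rows (10.6%), beside 2.02%. Chromosome 15 was chosen on these differences, so nothing is read from the shares.

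The 208 rows were next cut, in order of position, into 14 windows of 15 rows, with 13 rows in the last. A window counts as lower in DS6 at a median difference of -0.2 or less, and as higher in DS8 at 0.2 or more. By this measure 6 windows are lower in DS6, beside 9.2% of the 424 windows of all chromosomes, and 11 are higher in DS8, beside 19.1%. Both hold in 4 windows (2, 8, 10 and 12), beside 4.25% of all windows. These 4 are 66.7% of the windows lower in DS6 and 36.4% of those higher in DS8. With PC9-MGH left out of the reference, 7 of the 14 windows have both, and the share over all windows was not computed for this reference. The 2 differences share 6 reference libraries, so the values of each are set side by side in what follows.

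**Figure D2:**
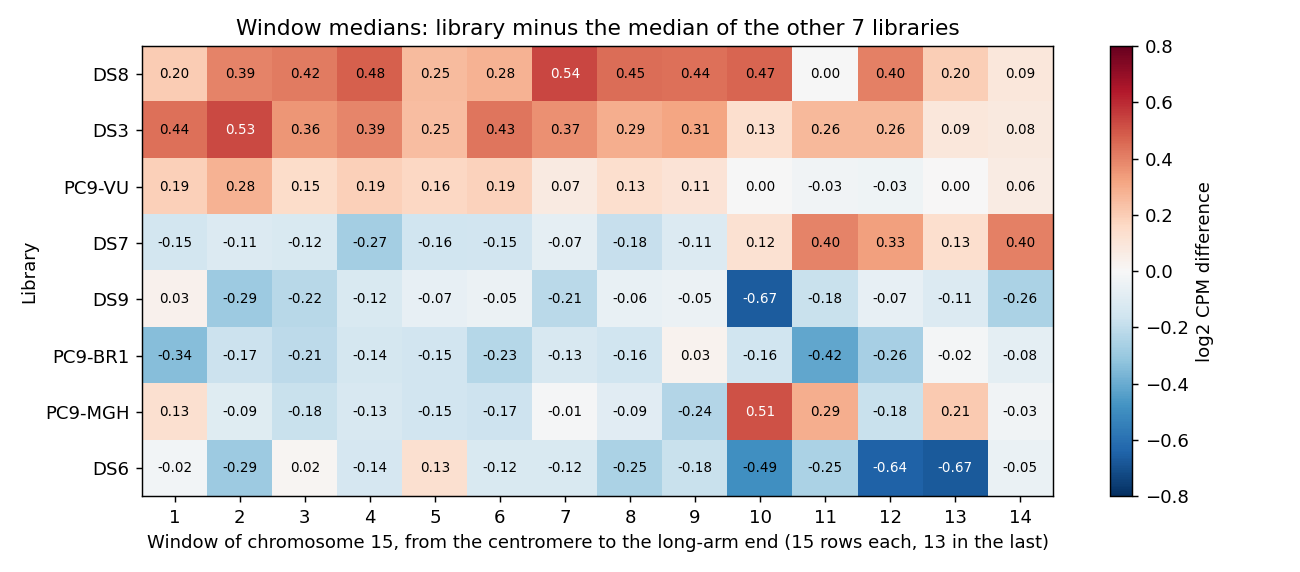
Median log2 CPM difference (library minus the median of the other 7) in each of 14 windows of chromosome 15 (columns, from the centromere to the end of the long arm) for each library (lines of cells), with red for higher and blue for lower and the value written in each cell. DS8 is at 0.20 or more in windows 1 to 10 and at 0.40 in window 12, DS3 is at 0.25 or more in windows 1 to 9 and at 0.26 in windows 11 and 12, and DS6 is lowest at -0.67 and -0.64 in windows 13 and 12.

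Windows 1 to 9, from the row named NIPA2 at 22.8 Mb to the row named MYO9A at 72.1 Mb, had a common pattern. DS8 lies between 0.20 and 0.54, DS3 between 0.25 and 0.53 and PC9-VU between 0.07 and 0.28 in all 9 windows. DS7 lies between -0.27 and -0.07 in all 9. These libraries thus keep the same side from window to window over about 50 Mb. DS6 lies between -0.29 and 0.13 there, and is the lowest of the 8 libraries in 1 window, at 63.2 to 64.7 Mb.

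The highest window of DS8 is window 7, from 52.3 to 62.8 Mb. The medians there are 0.54 in DS8, 0.37 in DS3, 0.07 in PC9-VU, -0.0096 in PC9-MGH, -0.074 in DS7, -0.12 in DS6, -0.13 in PC9-BR1 and -0.21 in DS9. DS8 and DS3 stand apart from the other 6 libraries, and DS6 lies among those 6. In summed counts of the window, DS8 has 834 CPM (exact 95% Poisson interval 800.5 to 868), DS3 835 CPM (803 to 867), PC9-VU 670 CPM (644 to 698), DS6 606 CPM (578 to 635) and DS7 583 CPM (555 to 612). The intervals of DS8 and DS3 overlap, as do those of DS6 and DS7.

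In window 2, from 39.8 to 40.8 Mb, DS6 and DS8 are opposed in most rows. DS8 is above 0 in all 15 rows and DS6 below 0 in 14. The medians are -0.29 in DS6 and 0.39 in DS8. DS9 also has -0.29 in this window and DS3 has 0.53, so each of the 2 sublines has a partner there. Window 8, from 63.2 to 64.7 Mb, is alike, with -0.25 in DS6 (below 0 in 13 of 15 rows) and 0.45 in DS8 (above 0 in 15 of 15). In windows 3 and 5, DS6 has 0.018 and 0.13 while DS8 has 0.42 and 0.25.

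The pattern changes in windows 10 and 11. In window 10, from 72.2 to 74.6 Mb, the medians are 0.51 in PC9-MGH, 0.47 in DS8, 0.13 in DS3, 0.12 in DS7, -0.0022 in PC9-VU, -0.16 in PC9-BR1, -0.49 in DS6 and -0.67 in DS9. DS9 and not DS6 is lowest here, and PC9-MGH is highest. In window 11, from 74.6 to 77.8 Mb, they are 0.395 in DS7, 0.29 in PC9-MGH, 0.26 in DS3, -0.0027 in DS8, -0.025 in PC9-VU, -0.18 in DS9, -0.25 in DS6 and -0.42 in PC9-BR1. DS8 is back at the middle of the libraries in this window, with 7 rows above 0 and 8 below, while DS6 is lower in 11 of 15 rows.

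DS6 is lowest of the 8 libraries in windows 12 and 13, which run from 77.98 to 90.3 Mb. In window 12 the medians are -0.64 in DS6, -0.26 in PC9-BR1, -0.18 in PC9-MGH, -0.065 in DS9, -0.032 in PC9-VU, 0.26 in DS3, 0.33 in DS7 and 0.40 in DS8. DS6 is below 0 in 15 of 15 rows and DS8 above 0 in 11. In summed counts, DS6 has 1147 CPM (1108 to 1187) and PC9-VU 1844 CPM (1800 to 1889). DS3 has 2090 CPM (2040 to 2140), DS7 2281 CPM (2226 to 2338) and DS8 2439 CPM (2382 to 2498). The interval of DS6 lies below those of the other 7 libraries, of which PC9-MGH is the lowest at 1470 CPM (1426 to 1516). In window 13 the medians are 0.21 in PC9-MGH, 0.196 in DS8, 0.13 in DS7, 0.09 in DS3, 0.0018 in PC9-VU, -0.017 in PC9-BR1, -0.11 in DS9 and -0.67 in DS6. DS6 stands apart from the next library, DS9, and DS8 is within the other libraries.

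Window 14, from 90.4 Mb to the end of the last named gene at 101.5 Mb, differs between measures. By the median difference DS6 has -0.054 and DS8 0.09, while DS7 has 0.40 and DS9 -0.26. In summed counts DS6 is lowest at 770 CPM (739 to 803), and its interval overlaps that of DS9, at 832 CPM (801 to 863). The median of DS6 is -0.20 against the mean of PC9-VU and DS3 and -0.34 against the mean of DS7 and DS9. Whether DS6 is low in the last 13 rows thus depends on the measure.

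Counts of single rows are given next for the lowest window of DS6 and the highest window of DS8. These windows were picked on the same differences, so the rows are examples and lend no separate support. In window 13, the lowest of DS6, the 3 rows with the highest mean counts are those named PEX11A, ARPIN and ISG20. The row ISG20 has 783 counts in PC9-VU, 598 in PC9-MGH, 660 in PC9-BR1, 835 in DS3, 423 in DS6, 705 in DS7, 698 in DS8 and 764 in DS9, or 147 CPM in DS6 against 211 to 262 CPM in the others. The row PEX11A has 207 CPM in DS6 and 229 to 631 CPM in the others, and its difference is -0.63 in DS6 and -0.23 in DS8. The row ARPIN has 214.5 CPM in DS6 and 215 to 412 CPM in the others. DS6 is lowest in all 3 rows, but in the row ARPIN it cannot be told from PC9-MGH (608 against 618 counts in DS6) at this depth.

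In window 7, the highest of DS8, the 3 largest rows are those named ADAM10, SLTM and MINDY2. The row SLTM has 488 counts in PC9-VU, 388 in PC9-MGH, 371 in PC9-BR1, 564 in DS3, 432 in DS6, 336 in DS7, 564 in DS8 and 356 in DS9. In CPM this is 199 in DS8, 177 in DS3 and 106 to 150 in the other 6. The row ADAM10 has 262 CPM in DS8, 249 in DS3 and 152 to 218 in the others. The row MINDY2 has 161 CPM in DS3 but 110 in DS8, within the 95.4 to 133 CPM of the other 6. DS3 is thus high in all 3 rows and DS8 in 2 of them.

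To ask whether the stretches coincide without a shared library, DS6 was compared with the mean of PC9-VU and DS3, and DS8 with the mean of DS7 and DS9. Over the 14 windows, DS6 then lies between -0.80 and -0.15 and DS8 between -0.19 and 0.69. Now 11 windows are lower in DS6, 12 are higher in DS8, and 9 are both (2, 3, 4, 6, 7, 8, 10, 12 and 13), beside 5.66% of all windows. With the reference pairs exchanged, 4 windows are lower in DS6, 6 are higher in DS8, and only window 12 is both, beside 1.89% of all windows. DS3 and PC9-VU have higher medians than DS7 and DS9 in all of windows 1 to 9. The first pairs therefore favour both calls in these windows, and the exchanged pairs disfavour both. Neither count can settle how far the stretches coincide there. With the first pairs, Pearson's r between the 2 differences is -0.086 and Spearman's rho -0.20 over 14 windows, which share the libraries' depth and the choice of rows. Over the 410 windows of the other chromosomes, r is -0.19 and rho -0.19. With the pairs exchanged, r on chromosome 15 is 0.19 and rho 0.10, so the sign is not settled. DS6 is then between -0.15 and 0.15 in windows 1 to 9 and falls to -0.77 and -0.70 in windows 12 and 13, while DS8 lies between -0.081 and 0.29 in all 14.

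**Figure D3:**
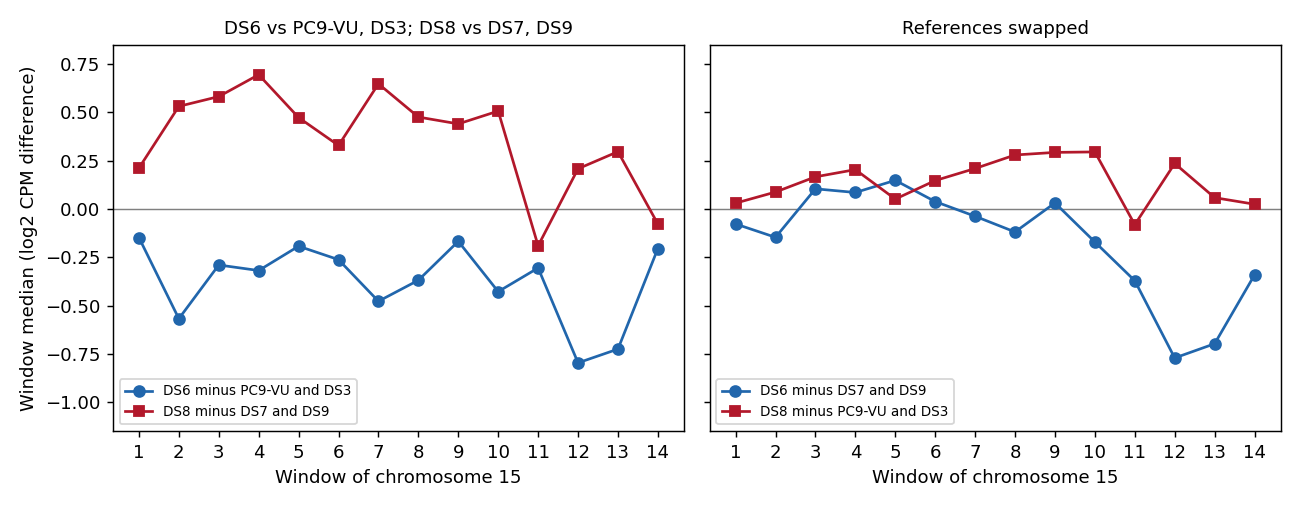
Window medians of the log2 CPM difference along chromosome 15 for DS6 (circles) and DS8 (squares), against reference libraries that the other difference does not use; the right panel exchanges the references. The low point of DS6 falls in windows 12 and 13 in both panels, at -0.80 and -0.72 on the left, while DS8 on the left is at 0.33 or more in windows 2 to 10 and at 0.21 and 0.30 in windows 12 and 13.

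The position at which 1 step best describes each difference was found in the same way. For DS6, the break lies between the starts of the named genes at 77.98 and 78.17 Mb, with a median of -0.33 over the 166 rows before it and -0.73 over the 42 rows after it. For DS8 it lies between 74.20 and 74.34 Mb, with 0.52 over the 147 rows before it and 0.06 over the 61 rows after it. A single step lowers the summed absolute deviation of rows by 6.22% in DS6 and 8.53% in DS8, so most of the spread between rows is not described by it. With the reference pairs exchanged, the break of DS6 lies between 74.54 and 74.60 Mb, with a median of 0.0024 before and -0.53 after. That step lowers the deviation by 11.6%, against 6.22% with the first pairs. The exchanged break of DS8 lies between 73.93 and 73.99 Mb and is shallow, from 0.16 to 0.0059, with a lowering of 2.68%. The stretches below use the breaks of the first pairs. The depth of the step in DS8 thus differs with the reference. The reference libraries themselves change near this place. From window 9 to windows 10 and 11, DS7 goes from -0.11 to 0.12 and 0.395, and PC9-VU from 0.11 to -0.0022 and -0.025. DS3 goes from 0.31 to 0.13 and 0.26, and DS9 from -0.046 to -0.67 and -0.18. With both references the break of DS8 lies nearer the centromere than that of DS6, but in the exchanged comparison the breaks are after 144 and 149 rows, less than a window apart.

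The breaks divide the rows into a proximal stretch of 147 rows up to 74.3 Mb, a stretch of 19 rows between the breaks, and a distal stretch of 42 rows from 78.2 Mb. These stretches were set after the values were seen, at breaks fitted to the differences of DS6 and DS8 themselves. Low values of DS6 in the distal stretch and high values of DS8 in the proximal stretch are therefore partly built in. In the proximal stretch the median differences are 0.44 in DS8, 0.37 in DS3, 0.16 in PC9-VU, -0.088 in PC9-MGH, -0.14 in DS7, -0.16 in DS6, -0.16 in PC9-BR1 and -0.17 in DS9. The libraries fall into a high pair, an intermediate PC9-VU and 5 close low libraries, of which DS6 is 1. In the distal stretch they are 0.27 in DS7, 0.24 in DS8, 0.15 in DS3, -0.0081 in PC9-VU, -0.059 in PC9-MGH, -0.092 in DS9, -0.13 in PC9-BR1 and -0.63 in DS6. Here DS6 stands alone and DS8 lies next to DS7. Between the breaks, DS7 has 0.35, PC9-MGH 0.29, DS3 0.26, DS8 0.017, PC9-VU -0.025, DS9 -0.25, DS6 -0.28 and PC9-BR1 -0.45.

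Library by library, DS6 minus another library in the proximal stretch has a median of -0.42 against DS3, -0.24 against PC9-VU, -0.026 against DS7, -0.024 against PC9-MGH, 3.5e-05 against DS9 and 0.00070 against PC9-BR1. It is below 0 in 126 of 147 rows against DS3, and in 73 of 147 against each of DS9 and PC9-BR1. In the distal stretch the same median is -0.92 against DS7, -0.90 against DS8, -0.76 against DS3, -0.65 against PC9-VU, -0.54 against PC9-MGH, -0.47 against DS9 and -0.44 against PC9-BR1. DS6 is lower there than each of the 7 in between 33 and 37 of the 42 rows. The lower level of DS6 in the proximal stretch is thus seen against DS3, DS8 and PC9-VU and not against the other 4 libraries. In the median of the distal stretch DS6 is lower than all 7. The distal stretch includes the 13 rows of window 14, where the level of DS6 depends on the measure (median difference -0.054).

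DS8 minus another library in the proximal stretch has a median of 0.51 against both PC9-BR1 and DS6, 0.46 against both DS7 and DS9, 0.44 against PC9-MGH, 0.27 against PC9-VU and 0.07 against DS3. It is above 0 in 126 of 147 rows against DS9 and in 90 of 147 against DS3. In the distal stretch it is -0.012 against DS7, 0.05 against DS3, 0.16 against PC9-VU, 0.29 against PC9-MGH, 0.35 against both PC9-BR1 and DS9, and 0.90 against DS6. The largest distance between DS8 and DS6 is thus in the distal stretch, and DS6 is the library that stands apart there.

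**Figure D4:**
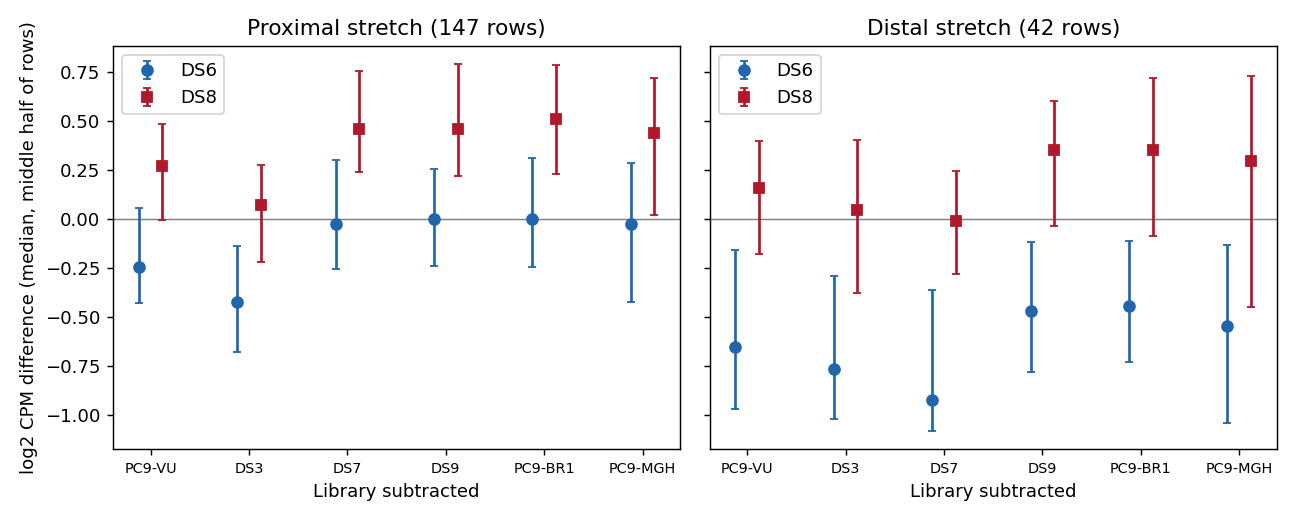
Median log2 CPM difference of DS6 (circles) and DS8 (squares) from each of 6 other libraries, named on the horizontal axis, over the 147 rows of the proximal stretch and the 42 rows of the distal stretch of chromosome 15. Bars span the interquartile range of the rows and are not errors of the median; in the proximal stretch DS6 lies between -0.026 and 0.00070 against 4 libraries and DS8 at 0.07 against DS3, and in the distal stretch DS6 is at -0.44 or lower against all 6.

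Single rows were also counted by stretch. The breaks were fitted to DS6 and DS8, so these shares are a description only. Of the 38 rows at least 1.5-fold lower in DS6, 11 lie among the 147 rows of the proximal stretch (7.48%, beside 6.89% of all rows), 1 among the 19 between the breaks, and 26 among the 42 of the distal stretch (61.9%). Of the 51 rows at least 1.5-fold higher in DS8, 39 lie in the proximal stretch (26.5%, beside 11.1% of all rows), 2 between the breaks and 10 in the distal stretch (23.8%). DS6 is the lowest library in 14.3% of proximal and 59.5% of distal rows, beside 9.85% of all rows. DS8 is the highest in 42.2% and 31.0%, beside 16.2%. Of the 12 rows called in both directions, 4 are proximal (2.72%) and 8 distal (19%), beside 2.06% of all rows. DS3 has 31 of its 37 rows at least 1.5-fold higher in the proximal stretch (21.1%, beside 7.18% of all rows), and DS7 has 4 of its 18 there and 8 in the distal stretch (19.0%, beside 4.47%).

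Summed counts give the levels of the stretches with their counting error, which does not cover the fitting of the breaks to DS6 and DS8. In the distal stretch DS6 has 2487 CPM (exact 95% Poisson interval 2429 to 2545). PC9-BR1, the next lowest, has 3318 CPM (3251 to 3387), and DS9 has 3602 CPM, PC9-VU 3806, DS7 4249, DS3 4257, DS8 4660 and PC9-MGH 5056. The interval of DS6 lies below those of all the others. In the proximal stretch PC9-BR1 has 12470 CPM, DS9 12950, DS6 13012, PC9-MGH 14517, PC9-VU 15458, DS7 17224, DS8 18280 and DS3 19229. DS7 is higher in these sums than in the median of rows. Window 9 alone holds 11438 CPM in DS7 and 8707 CPM in PC9-VU, so a few large rows weigh on the proximal sums.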

How the data were processed

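The data are 1 count table of bulk RNA-seq from 8 PC9 populations, 1 library per population. Paired-end reads were aligned by the authors to hg38 with STAR (version 2.5.2b), counted with featureCounts (version 1.6.4) and deposited by the authors as raw read counts per row without normalization. The handling of strand and of reads over several genes is not given in the sources used here. Of 30988 rows, 8324 carry no gene symbol. They hold 4.23% to 4.41% of a library's counts and were left out. Of the 22664 named rows, 22214 matched 1 symbol of GENCODE release 44, 66 several and 384 none.

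Counts were normalized with edgeR (version 4.0.16, TMM, prior count 2, R version 4.3.3) over 6456 rows averaging 10 or more counts. DESeq2 (version 1.42.0) gave size factors and rlog values as alternatives. Windows, breaks and intervals were computed in Python (version 3.11.15). The processing steps were run on simulated counts with known changes and counting error only. Those counts held no differences between the reference libraries, so they cannot show how firm the breaks are. Chromosome 15, its windows and the rules were chosen with earlier results of these data known. Rows are named only to mark windows, or as the 3 rows with the highest mean count in the lowest window of DS6 and in the highest window of DS8. The search for the position of the counted sequence in steps of 500 bases and the 3 stretches were added after seeing the data.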

Additional observations from a re-analysis of the deposited data

How the results depend on the processing

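Each population has 1 library, so there are no replicates to leave out. No paired analysis was possible because each population has 1 library, so the groups share fewer than 2 replicate numbers. A value is called moved below when it left the exact 95% binomial interval of the median over rows, the 95% interval of a correlation or 15 rows around a break, or when a count changed by over 1.5 times.

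The chromosome medians of -0.23 in DS6 and 0.35 in DS8 kept their direction in all 34 alternatives. They became -0.031 and 0.17 without a filter on low rows, -0.11 and 0.15 with rlog, which shrinks differences, -0.28 and 0.22 against PC9-VU alone, and -0.36 and 0.24 as ratios of summed counts. Correction for GC content gave -0.25 and 0.34. The GC content was taken around the named genes, and the sequence counted appears to lie beyond them. This correction therefore cannot show whether GC content matters here. The proximal medians of -0.16 in DS6 and 0.44 in DS8 became -0.082 and 0.19 with rlog and -0.24 and 0.27 against PC9-VU alone, and the distal median of DS6 became -0.31 with rlog. The 6 windows lower in DS6, 11 higher in DS8 and 4 with both became 11, 18 and 9 of 21 with windows of 10 rows, and 4, 6 and 2 of 8 with windows of 25 rows. At a threshold of 0.1 they were 10, 12 and 9, and at 0.3 they were 3, 8 and 2. For rows averaging 50 or more counts, 7 of 9 windows were higher in DS8, and with PC9-MGH left out of the reference 7 of 14 had both. Shares over all windows were not computed for these changes of window, threshold, filter and reference. With the separate reference pairs the window counts were 11, 12 and 9, and with these exchanged 4, 6 and 1. The 38 rows lower in DS6 and 51 higher in DS8 became 77 (37.0%, beside 15.4% of all rows) and 114 (54.8%, beside 23.1%) at the lower of the 2 other fold thresholds. They were 11 (5.29%, beside 2.08%) and 4 at 2-fold. Without a filter they were 78 (18.3%, beside 9.1%) and 108 (25.4%, beside 16.0%) of 426. At 2-fold the rows of DS8 (1.92%) are below the share of all rows (3.48%). Of the 136 rows averaging 50 or more counts, 31 were higher in DS8 (22.8%, beside 8.35% of all rows). Against PC9-VU alone, 30 of the 208 rows were higher in DS8 (14.4%, beside 11.7% of all rows). The correlation of -0.086 had the other sign with the reference pairs exchanged (0.19), for rows averaging 50 or more counts (0.43, 9 windows) and with windows of 25 rows (0.46, 8 windows), so its sign is not settled. The break of DS6 moved to 74.6 Mb with the pairs exchanged. The cause of these changes was not tested. The alternatives for the proximal and distal medians and the window counts with separate references were added after seeing the data.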

Other observations

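Elsewhere in the genome, 14 of the 410 windows of the other chromosomes were both lower in DS6 (-0.2 or less) and higher in DS8 (0.2 or more). They lie on chromosomes 7 (5 windows), 17 (4), 20 (2), 4, 6 and 8. In those of chromosome 7, DS9 lies between -0.42 and -0.31 and DS7 between -0.84 and -0.10, so that DS6 is not alone there. On chromosome 15, PC9-MGH was highest of the 8 libraries in windows 10 and 13, at 0.51 and 0.21, with -0.18 in window 12 between them.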
